A study of Homo sapiens with 6 samples.

Results

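The genes described here are 10 regulators of the BCL2 family, which decide whether the outer mitochondrial membrane is opened during apoptosis. They were chosen by name: BCL2, BCL2L1, MCL1, BAX, BAK1, BCL2L11, BID, BBC3, PMAIP1 and BMF. All 10 were found by symbol among the 26485 genes of the count table, and all 10 passed the filter on low counts, as did 14018 genes in all. The cells were PC-9, a line grown from an EGFR-mutant human lung adenocarcinoma. The 3 shControl samples came from PC-9 cells that stably expressed a control short hairpin RNA (shRNA), which the table's column names call ShEV. The 3 shIFITM3 samples came from PC-9 cells that stably expressed an shRNA against IFITM3, an interferon-induced membrane protein. Both groups were grown in RPMI medium with fetal bovine serum, and the labels name no drug. How many hairpins were used, and how many separately transduced populations, is not given in the sources used here. Each group may therefore be 1 transduced population, and p-values measure the spread between these samples.

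Proteins of this family share short BCL2 homology (BH) regions and act by binding one another. BCL2, BCL-XL (the main product of BCL2L1) and MCL1 are pro-survival: they hold the other members in check. BAX and BAK1 are the effectors, which form pores in the outer mitochondrial membrane and let cytochrome c out to start the caspase cascade. BIM (BCL2L11), BID, PUMA (BBC3), NOXA (PMAIP1) and BMF are BH3-only proteins, which carry the signal to die by filling the groove of pro-survival proteins or by activating BAX and BAK1. In EGFR-mutant lung cancer cells, BIM, PUMA and BMF are known as mediators of death when EGFR signalling is blocked.

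The BH3 region is what all 10 members have in common, and it is shown here because the changes described next fall on genes that code for the same motif. A search of the principal coding sequence of each gene in GENCODE release 29 (GRCh38) for a leucine, any 3 residues, glycine or alanine, aspartate, any residue and a hydrophobic residue found exactly 1 match in each of the 10 proteins. The same pattern was present in 8.79% of 19471 genes with a complete principal coding sequence, so it is not specific to the family. Each line gives 42 coding bases, 5′ to 3′ on the coding strand, with the codons of the leucine, the glycine or alanine and the aspartate in capitals.
BCL2: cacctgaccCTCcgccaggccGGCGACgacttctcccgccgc
BCL2L1: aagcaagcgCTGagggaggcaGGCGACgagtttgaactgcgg
MCL1: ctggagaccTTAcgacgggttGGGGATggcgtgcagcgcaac
BAX: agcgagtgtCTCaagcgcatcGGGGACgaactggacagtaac
BAK1: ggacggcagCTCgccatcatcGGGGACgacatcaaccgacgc
BCL2L11: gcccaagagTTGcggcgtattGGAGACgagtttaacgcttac
BID: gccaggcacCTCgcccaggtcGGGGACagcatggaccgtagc
BBC3: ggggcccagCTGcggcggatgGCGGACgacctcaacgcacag
PMAIP1: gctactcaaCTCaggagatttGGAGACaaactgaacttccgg
BMF: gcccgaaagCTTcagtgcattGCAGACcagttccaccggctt

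BBC3 and BMF have an alanine codon where the other 8 members have a glycine codon. All 10 stretches lie within a single coding exon. On the plus strand they are at chr19:48955778-48955819 (BAX, exon 3 of 6), chr2:111150094-111150135 (BCL2L11, exon 4 of 5) and chr18:59902664-59902705 (PMAIP1, exon 2 of 2). On the minus strand the pro-survival stretches are at chr18:63318346-63318387 (BCL2), chr20:31721919-31721960 (BCL2L1) and chr1:150578862-150578903 (MCL1), each in exon 1. Those of BAK1, BID, BBC3 and BMF, also on the minus strand, are at chr6:33575384-33575425, chr22:17739412-17739453, chr19:47226576-47226617 and chr15:40104192-40104233. The counts are per gene, so they do not tell apart splice forms that hold or skip this region, such as the long and short products of BCL2L1 and MCL1 or the several forms of BIM.

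Total counts were between 21342028 and 77228760 per sample, with shControl replicate 2 the deepest. Levels are given as CPM, a gene's count scaled to a common library size after TMM scaling. IFITM3 was at 57.0, 60.5 and 62.8 CPM in shControl and at 10.4, 12.9 and 9.75 CPM in shIFITM3, so the targeted gene was lower in each library labelled as knockdown. The 6 epithelial markers checked (EPCAM, CDH1, KRT8, KRT18, KRT19 and CLDN4) were all expressed, with summed levels of 7352 to 7445 CPM in shControl and 5999 to 6222 CPM in shIFITM3. Of these, CDH1 (log2 fold change -0.60), KRT8 (-0.50) and KRT18 (-0.29) fell, CLDN4 (0.45) and EPCAM (0.09) rose, and KRT19 did not pass. For EPCAM the CPM values of the groups overlapped, although it passed. The count of rises among the 6 was 1 under upper-quartile scaling. It was also 1 without shControl replicate 2, shIFITM3 replicate 1 or shIFITM3 replicate 3. The 11 markers of fibroblasts, leukocytes and endothelium summed to 12.8 to 15.1 and 13.5 to 17.9 CPM. Of these, 8 had fewer than 20 counts in every sample, 1 of them (DCN) had no count, and 3 were tested: COL1A1 (9.56 ± 0.842 and 11.6 ± 1.74 CPM) and CDH5 (0.666 ± 0.288 and 2.04 ± 0.309 CPM) rose and PECAM1 (2.70 ± 0.360 and 0.842 ± 0.0905 CPM) fell. The CPM values of the groups overlapped for COL1A1. Among these 3 tested markers, the count of rises was 1 under DESeq2, the replicate block, the GC and length correction and the filter of 50 counts. It was also 1 when shControl replicate 2, shControl replicate 3 or shIFITM3 replicate 3 was left out. The part of these markers in the results was not tested.

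Of the 10 members 5 rose and 2 fell in knockdown cells, and 3 did not pass (quasi-likelihood test of edgeR, p adjusted by Benjamini-Hochberg over all 14018 genes, threshold 0.05). The risers were PMAIP1, BBC3, MCL1, BCL2L1 and BCL2L11, and the falls were BMF and BID. These counts have to be read against a background in which 56.1% of tested genes passed, 27.7% higher and 28.4% lower. The members' share of calls, 7 of 10, is thus not far from that of any gene in this comparison. Their median log2 fold change was 0.21 against -0.0001 for all tested genes, and their median absolute log2 fold change was 0.39 against 0.251. The members were chosen with earlier results of these data known, so these medians only describe them. The CPM values of the groups did not overlap for 7 members, which were the same 7 that passed, where 60.9% of all tested genes had no overlap. In bulk RNA a change in every cell and a change in the share of cells that express a gene cannot be told apart, here and in each result that follows.

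**Figure D1:**
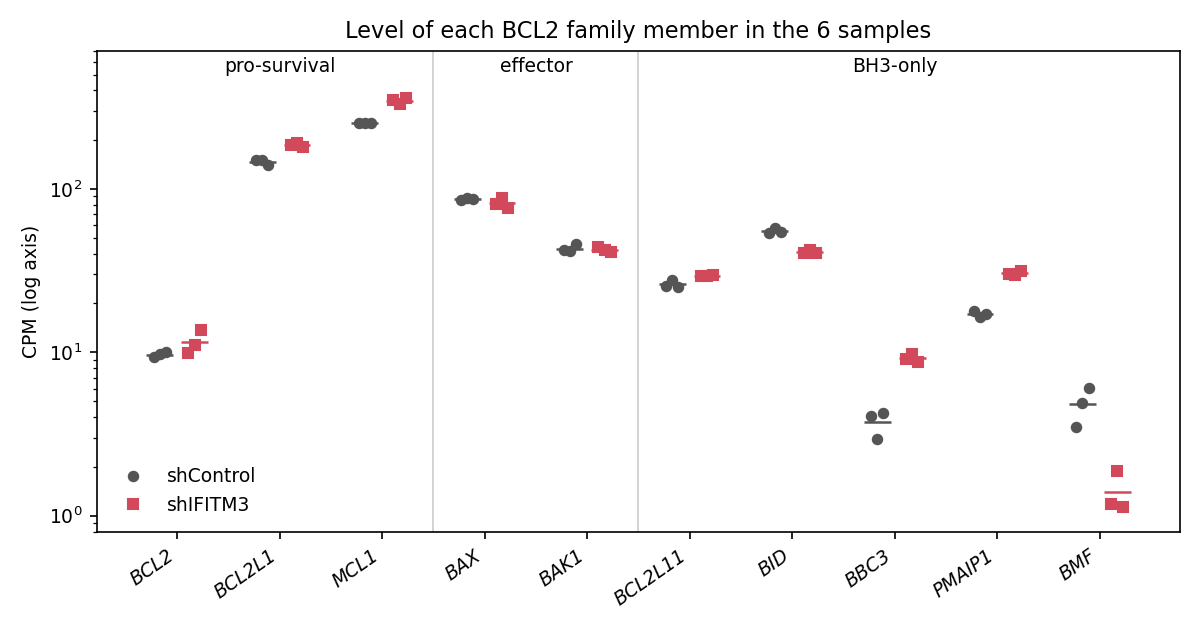
CPM (log axis) of each of the 10 members in the 3 shControl samples (circles) and the 3 shIFITM3 samples (squares), with a bar at the group mean and the genes ordered by role. The groups stand clear of each other for BCL2L1, MCL1, BCL2L11, BID, BBC3, PMAIP1 and BMF, and overlap for BCL2, BAX and BAK1.

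Among the pro-survival genes, MCL1 (chromosome 1, 150574558 to 150579610, minus strand, GRCh38) encodes a short-lived protein that binds BIM, PUMA, NOXA and BAK1. In the order of replicates 1, 2 and 3, which is kept throughout, shControl had 252, 253 and 253 CPM and shIFITM3 had 347, 329 and 357 CPM. The 3 control values lay within 1 CPM of each other and every knockdown value was higher. MCL1 rose from 253 ± 0.384 to 344 ± 14.6 CPM (SD, n = 3 each), which is 1.36-fold (log2 0.45 ± 0.034 SE, edgeR adjusted p = 6.62e-11).

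BCL2L1 (chromosome 20, 31664452 to 31723963, minus strand) encodes BCL-XL, a pro-survival protein of long half-life. It was at 150, 150 and 140 CPM in shControl and at 186, 191 and 182 CPM in shIFITM3. Every knockdown sample was above every control sample, and the means were 147 ± 5.74 and 186 ± 4.93 CPM (n = 3 each). The rise was 1.27-fold (log2 0.34 ± 0.0386 SE, edgeR adjusted p = 5.57e-08). In GENCODE, BCL2L1 shares 1424 exon bases with the antisense gene ABALON, which was counted at 4.61 ± 0.622 and 5.35 ± 0.761 CPM and did not pass (edgeR adjusted p = 0.287).

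BCL2 (chromosome 18, 63123346 to 63320090, minus strand), the gene that names the family, was the lowest of these 3 per length. Its values were 9.33, 9.74 and 10.00 CPM in shControl and 9.91, 11.1 and 13.6 CPM in shIFITM3. The lowest knockdown sample lay inside the control range. The log2 fold change was 0.25 with a 95% interval of 0.0161 to 0.49, and the gene did not pass (edgeR adjusted p = 0.0644). It came under 0.05 without shIFITM3 replicate 1 (log2 fold change 0.35, adjusted p = 0.0174) and with the deepest library thinned (adjusted p = 0.0493).

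Neither effector gene passed. BAX (chromosome 19, 48954875 to 48961798, plus strand), whose product moves from the cytosol to mitochondria in dying cells, was at 85.4, 87.8 and 87.3 CPM in shControl and at 80.3, 87.5 and 76.7 CPM in shIFITM3. Knockdown replicate 2 lay within the control range and the others lay under it. The log2 fold change was -0.09 (95% interval -0.19 to 0.0067, edgeR adjusted p = 0.105). The gene passed as lower without shIFITM3 replicate 2 (log2 fold change -0.15, adjusted p = 0.0103) and after the correction for GC content and length (adjusted p = 0.0259).

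BAK1 (chromosome 6, 33572552 to 33580276, minus strand) encodes an effector that sits in the outer mitochondrial membrane and is held there by MCL1 and BCL-XL. It was at 42, 41.6 and 45.7 CPM in shControl and at 43.9, 42.1 and 41.0 CPM in shIFITM3, so the groups overlapped. The log2 fold change was -0.02, with a 95% interval of -0.14 to 0.0946 (edgeR adjusted p = 0.747). GENCODE names the processed pseudogenes BAK1P1 and BAK1P2, which have no row of their own here, so reads shared with them would affect the BAK1 value.

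The BH3-only genes moved in opposite directions. BBC3 (chromosome 19, 47220824 to 47232860, minus strand) encodes PUMA, which binds all pro-survival proteins. It was at 4.10, 2.94 and 4.27 CPM in shControl (87, 226 and 117 counts) and at 9.09, 9.74 and 8.66 CPM in shIFITM3 (200, 224 and 207 counts). Each knockdown sample was more than 2 times the highest control sample. The means of 3.77 ± 0.726 and 9.16 ± 0.543 CPM gave a 2.52-fold rise (log2 1.33 ± 0.152 SE, edgeR adjusted p = 7.22e-08).

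PMAIP1 (chromosome 18, 59899996 to 59904305, plus strand) encodes NOXA, a small BH3-only protein that binds MCL1 and promotes its degradation. It was at 17.8, 16.5 and 17.2 CPM in shControl and at 29.9, 29.7 and 31.6 CPM in shIFITM3. The groups were far apart relative to the spread within them, with means of 17.2 ± 0.643 and 30.4 ± 1.02 CPM (n = 3 each). The rise was 1.78-fold (log2 0.84 ± 0.0727 SE, edgeR adjusted p = 7.4e-10).

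BCL2L11 (chromosome 2, 111120914 to 111168445, plus strand) encodes BIM, which ERK signalling marks for degradation. It was at 25.6, 27.7 and 25.0 CPM in shControl and at 29.4, 29.2 and 29.9 CPM in shIFITM3. The groups did not overlap, but the gap between them was small, and the log2 fold change was 0.17 (95% interval 0.0282 to 0.31, edgeR adjusted p = 0.0381). That call ended in DESeq2 (adjusted p = 0.0508), limma-voom (0.0598), upper-quartile scaling (0.0621) and without a filter (0.0637). It also ended without shControl replicate 1 or 3 (0.0867 and 0.147) or shIFITM3 replicate 1, 2 or 3 (0.0709, 0.058 and 0.0955). Over 727 exon bases BCL2L11 overlaps MIR4435-2HG on the opposite strand, which itself rose from 22.0 ± 2.86 to 26.4 ± 0.864 CPM (log2 fold change 0.28, edgeR adjusted p = 0.00617). The part of shared reads in the BCL2L11 value was not tested.

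BID (chromosome 22, 17734138 to 17774665, minus strand) links death receptors to mitochondria, since caspase-8 cuts its product to the active form. It was at 54.0, 57.6 and 54.4 CPM in shControl and at 40.4, 42.4 and 40.3 CPM in shIFITM3. All knockdown samples were lower than all control samples. BID fell to 0.739 times its control level, with group means of 55.3 ± 1.94 and 41.0 ± 1.18 CPM (log2 -0.44 ± 0.0531 SE, edgeR adjusted p = 1.97e-07).

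BMF (chromosome 15, 40087890 to 40108879, minus strand) encodes a BH3-only protein that is tethered to myosin motors through dynein light chain and released under stress. It changed most of the 10. It was at 3.49, 4.87 and 6.06 CPM in shControl (74, 375 and 166 counts) and at 1.18, 1.87 and 1.13 CPM in shIFITM3 (26, 43 and 27 counts). The control samples were spread widely, yet the lowest of them was above the highest knockdown sample. BMF fell to 0.288 times its control level, with group means of 4.81 ± 1.29 and 1.39 ± 0.413 CPM (log2 -1.80 ± 0.236 SE, edgeR adjusted p = 6.43e-07). These are low counts, and GENCODE places an antisense gene, BMF-AS1, over 461 of its exon bases that has no row of its own here.

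**Figure D2:**
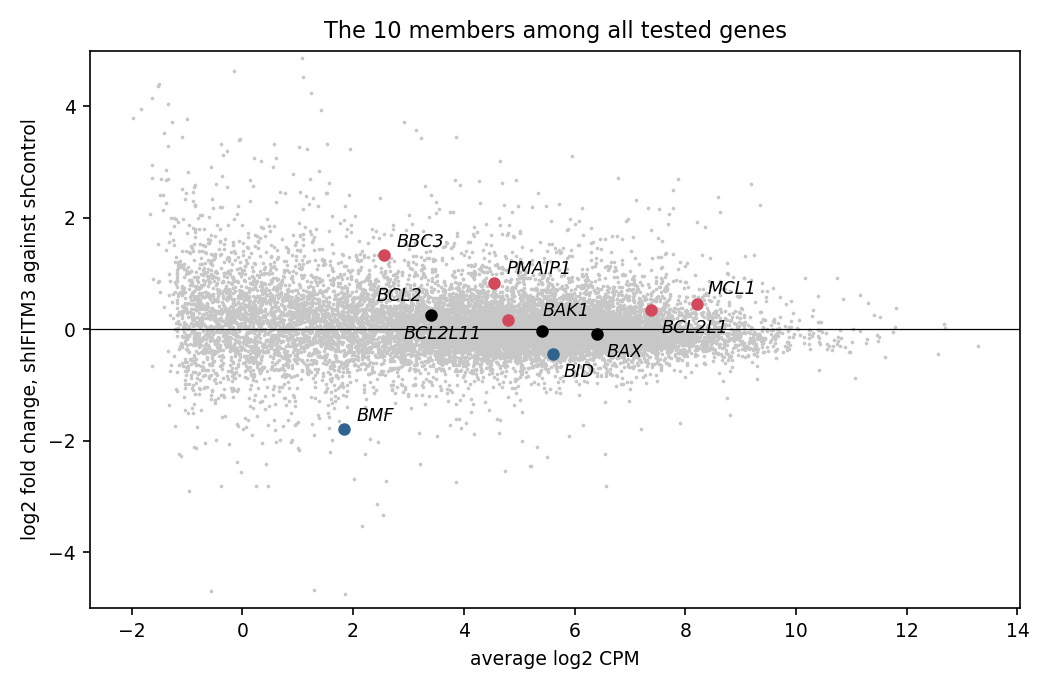
Log2 fold change against average log2 CPM for the 14018 tested genes (grey, 3 of them beyond the drawn range) with the 10 members marked (red: higher, blue: lower, black: not called). BMF and BBC3 lie at the low-expression side with the largest changes of the 10, while MCL1 and BCL2L1 combine high expression with changes of 0.45 and 0.34.

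The 3 genes with the largest changes, BMF, BBC3 and PMAIP1, are all BH3-only genes. The 250 bases before their annotated start are shown to let their promoters be compared. The sequences are from RefSeq (GRCh38.p14), which gave such a window for 9 of the 10 members, and only 1 start per gene is covered. MCL1 had none. Both strands were searched for motifs that included the cAMP response element core TGACG and its full form TGACGTCA, the forkhead motif TGTTTAC, the ATF4 motif TGATGNAA, the E-box CACGTG, the GC box GGGCGG, the TATA box TATAAA and the NF-kB consensus. Capitals mark every match but those to the TATA box, on either strand, and a full cAMP response element would also hold its core.
BMF: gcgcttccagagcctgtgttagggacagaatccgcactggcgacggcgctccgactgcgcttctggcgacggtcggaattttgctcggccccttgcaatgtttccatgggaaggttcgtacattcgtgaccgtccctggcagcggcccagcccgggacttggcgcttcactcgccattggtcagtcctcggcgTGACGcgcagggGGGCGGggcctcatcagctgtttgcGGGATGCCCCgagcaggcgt
BBC3: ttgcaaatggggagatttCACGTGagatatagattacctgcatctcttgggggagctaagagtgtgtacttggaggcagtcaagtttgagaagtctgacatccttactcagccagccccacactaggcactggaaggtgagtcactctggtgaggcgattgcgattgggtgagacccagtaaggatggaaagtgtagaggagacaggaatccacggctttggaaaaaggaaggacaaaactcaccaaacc
PMAIP1: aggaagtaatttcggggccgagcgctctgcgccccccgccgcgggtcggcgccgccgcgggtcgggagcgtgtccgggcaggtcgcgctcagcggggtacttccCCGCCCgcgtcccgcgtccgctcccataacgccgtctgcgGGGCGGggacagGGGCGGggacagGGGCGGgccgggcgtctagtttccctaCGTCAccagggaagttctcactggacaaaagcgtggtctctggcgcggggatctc

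The windows lie at chr15:40108880-40109129 and chr19:47232668-47232917 on the minus strand for BMF and BBC3, and at chr18:59899746-59899995 on the plus strand for PMAIP1. The BBC3 window lies partly inside the annotated gene, which reaches to 47232860, so it belongs to a start within the gene. PMAIP1 held 4 GC boxes and BMF held 1, at 45 to 40 bases before the start. BMF and PMAIP1 each held 1 TGACG, at 57 to 53 bases and 55 to 51 bases before the start. BMF also held a match to the NF-kB consensus, and BBC3 held only an E-box. These motifs are common: the GC box was found in 42.6% of 35116 windows, TGACG in 21.2%, the NF-kB consensus in 9.96% and the E-box in 6.34%. Across the 9 windows of members, TGACG occurred in 5 and the GC box in 6. The BBC3 window had a GC content of 49.2% and those of PMAIP1 and BMF had 72.8% and 65.2%, where the median of all windows was 58.0%.

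Levels of different members can be compared only per length. With CPM divided by kilobases of GENCODE exon, MCL1 was highest in both groups (57.8 ± 0.0925 and 78.8 ± 3.35 CPM per kb), followed by BCL2L1 (44.3 ± 1.73 and 56.2 ± 1.48), BAX (33.6 ± 0.494 and 31.5 ± 2.13) and BAK1 (19.5 ± 1.01 and 19.1 ± 0.648). BID and PMAIP1 came next and changed places: BID went from 12.5 ± 0.436 to 9.23 ± 0.266 CPM per kb and PMAIP1 from 7.67 ± 0.289 to 13.6 ± 0.457. BCL2L11 (3.92 and 4.43) and BBC3 (1.19 and 2.88) were lower. BCL2 (0.824 ± 0.0285) and BMF (0.882 ± 0.236) were the lowest in control cells, and did not differ from each other beyond their spread there. The order depends on the length used. Per kilobase of the longest transcript, BID stayed above PMAIP1 in shIFITM3 (16.4 against 15.6), and in shControl BAX was above BCL2L1 (63.9 against 56.3), BID above BAK1 (22.2 against 19.5) and BCL2 above BMF (1.30 against 1.03).

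Summed per length, pro-survival transcripts made up 57.2, 56.8 and 55.6% of the 10 members' total in shControl and 62.8, 61.6 and 63.6% in shIFITM3. The share of the effectors was 28.6, 28.8 and 30.0% in shControl and 23.4, 24.3 and 22.3% in shIFITM3. The groups did not overlap in these shares. The share of the BH3-only genes was 14.2, 14.4 and 14.4% in shControl and 13.8, 14.1 and 14.1% in shIFITM3, a small difference, though again without overlap. Their summed level was 26.1 ± 0.216 CPM per kb in shControl and 30.4 ± 0.385 in shIFITM3 (n = 3 each). That of the pro-survival genes was 103 ± 1.69 and 136 ± 1.96 CPM per kb. The summed level of the effectors was 52.0, 52.7 and 54.4 CPM per kb in shControl and 50.9, 52.9 and 48.2 in shIFITM3. These effector sums overlapped between the groups, unlike the effector share. These sums and shares depend on the length used, which was kilobases of exon. They are set mostly by the abundant members, were not tested, and count transcripts and not protein.

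The make-up of the BH3-only sum, per kilobase of exon, also differed. Which of BID and PMAIP1 is larger in shIFITM3 turns with the length used, as given before. BID made up 47.7 ± 1.35% of it in shControl and 30.4 ± 0.761% in shIFITM3, and PMAIP1 29.4 ± 1.35% and 44.8 ± 1.37%. BBC3 went from 4.54 ± 0.898% to 9.48 ± 0.553% and BMF from 3.38 ± 0.890% to 0.841 ± 0.244%, while BCL2L11 was at 15.0 ± 0.755% and 14.6 ± 0.209%. Between binding partners, the log2 ratio of PMAIP1 to MCL1 per kilobase was -2.86, -2.97 and -2.91 in shControl and -2.57, -2.50 and -2.53 in shIFITM3, higher in every knockdown sample although both genes rose. The log2 ratio of BBC3 to BCL2L1 was also higher, at -5.24 ± 0.331 in shControl and -4.29 ± 0.0471 in shIFITM3. So was that of BBC3 to MCL1, at -5.63 ± 0.298 and -4.77 ± 0.147. The log2 ratio of BCL2L11 to MCL1 was -3.91, -3.80 and -3.95 in shControl and lower in every knockdown sample, at -4.17, -4.10 and -4.19. The log2 ratio of BAX to BCL2L1 was likewise lower, at -0.40 ± 0.0674 in shControl and -0.84 ± 0.0591 in shIFITM3. That of BID to BCL2L1 was lower too, at -1.83 ± 0.0603 and -2.61 ± 0.0169. The groups overlapped in the log2 ratio of BAX to BAK1 (0.785 ± 0.0722 and 0.718 ± 0.0984). They also overlapped in that of MCL1 to BCL2L1 (0.386 ± 0.0573 and 0.486 ± 0.0995). None of these ratios was tested.

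**Figure D3:**
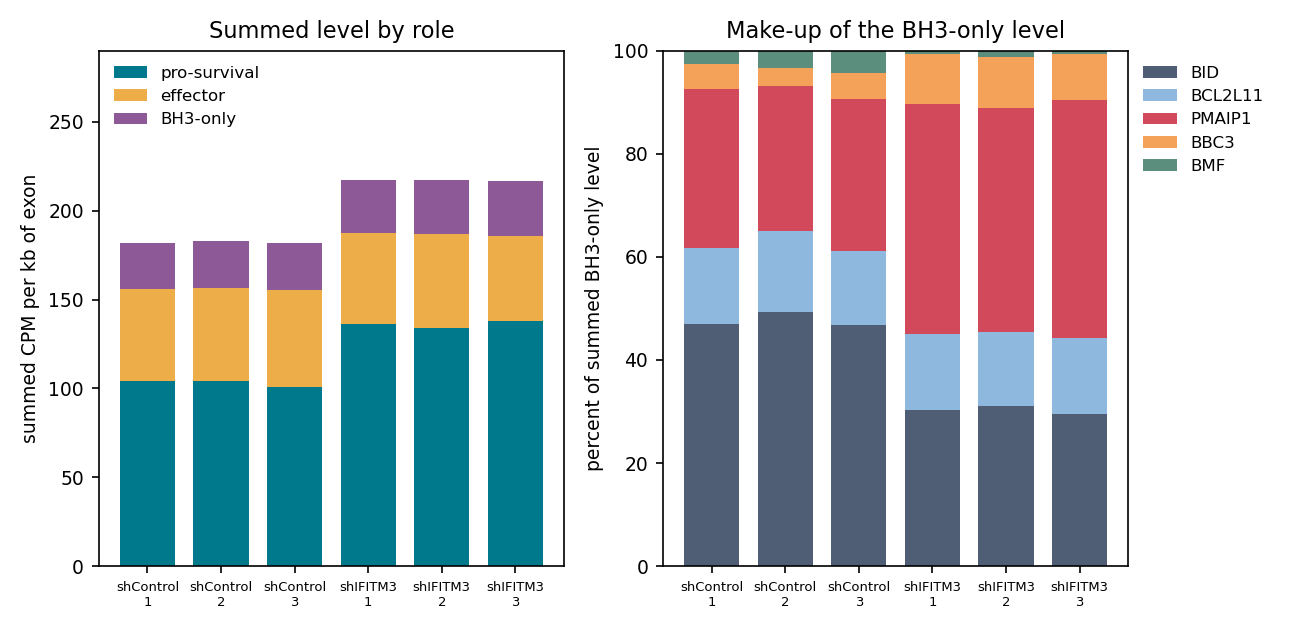
Left, summed CPM per kb of exon in each sample, stacked by role; right, the percentage of the summed BH3-only level contributed by each of the 5 BH3-only genes. The pro-survival layer is taller in the 3 shIFITM3 samples (136 ± 1.96 against 103 ± 1.69 CPM per kb), and PMAIP1 replaces BID as the largest BH3-only layer, which holds per kb of exon but not per kb of the longest transcript.

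Of 13 other genes of the family, 9 were tested, of which 4 rose and 2 fell, with a median log2 fold change of 0.21. Among all tested genes 56.1% passed, 27.7% higher and 28.4% lower. The pro-survival gene BCL2L2, which encodes BCL-W, rose from 26.1 ± 1.81 to 32.0 ± 0.947 CPM (log2 fold change 0.29, edgeR adjusted p = 0.000718). BOK, which encodes a further effector-like protein, rose from 79.8 ± 0.775 to 102 ± 3.49 CPM (0.35, adjusted p = 1.74e-07), and the BH3-only gene BAD rose from 30.7 ± 1.66 to 35.8 ± 0.931 CPM (0.21, adjusted p = 0.00665). BIK, a BH3-only gene whose product sits in the endoplasmic reticulum, fell from 6.11 ± 0.503 to 3.64 ± 1.19 CPM (-0.73, adjusted p = 0.00174). The mitophagy receptor genes BNIP3L (0.43, adjusted p = 5.41e-07) and BNIP3 (-0.23, adjusted p = 0.0016) moved in opposite directions. HRK (log2 fold change 0.59, 95% interval -0.24 to 1.43), BCL2L12 (-0.02) and BCL2L13 (0.02) did not pass. BCL2A1, BCL2L10, BCL2L14 and BCL2L15 were too low to be tested. The pro-survival gene BCL2A1 had no count in the 3 shControl samples, where a count of 0 allows up to 0.141 CPM in the shallowest library, and 2, 3 and 2 counts in shIFITM3.

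**Figure D4:**
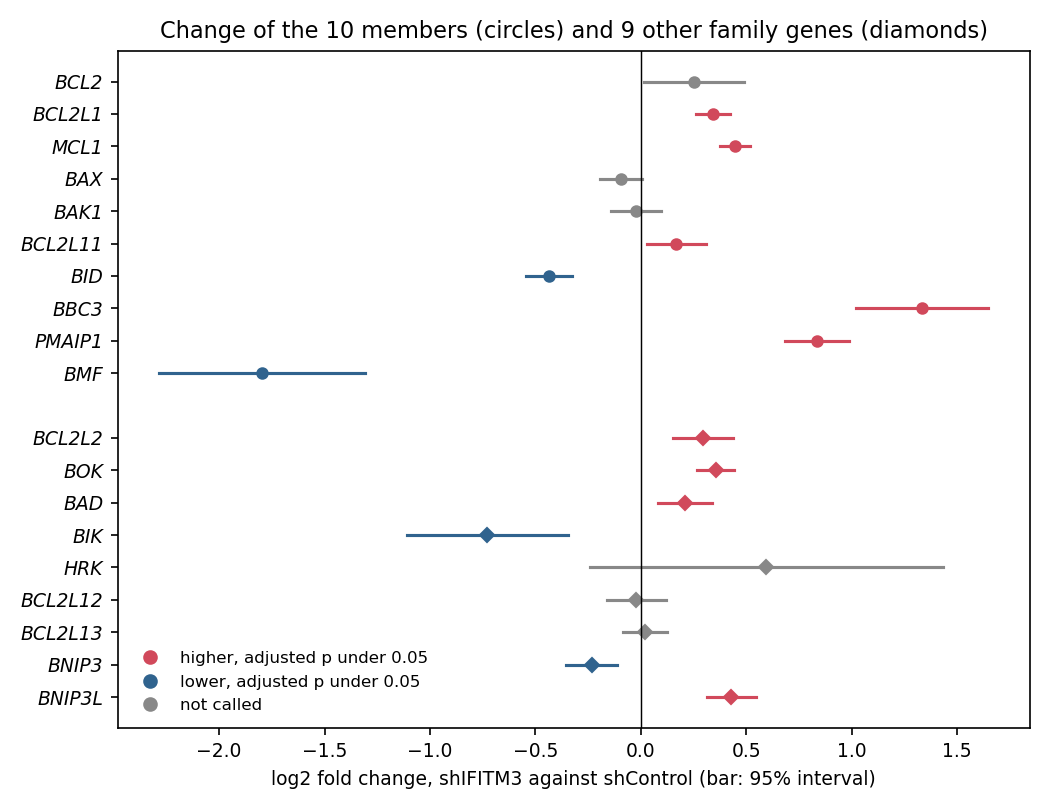
Log2 fold change (shIFITM3 against shControl) with its 95% interval for the 10 members (circles) and the 9 other family genes that were tested (diamonds), coloured by call. BMF at -1.80 and BBC3 at 1.33 lie farthest from 0, and the interval of HRK is the widest.

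Genes that act around the family were read from 5 lists. Their counts have to be read against the background given above, in which 56.1% of tested genes passed, 27.7% higher and 28.4% lower. Downstream of the mitochondrial pore, 1 of 13 tested genes rose and 6 fell, with a median log2 fold change of -0.19. The cytochrome c gene CYCS fell from 360 ± 14.8 to 276 ± 6.76 CPM (-0.38, edgeR adjusted p = 1.4e-09), and AIFM1, a mitochondrial flavoprotein gene, fell from 120 ± 2.25 to 91.1 ± 1.96 CPM (-0.40, adjusted p = 1.15e-08). Among genes of the death receptor route to BID, 4 of 10 rose and 1 fell, with a median of 0.01. The TRAIL receptor genes TNFRSF10B (0.61, from 60.8 ± 1.90 to 92.9 ± 4.33 CPM) and TNFRSF10A (0.47) rose, and so did the adaptor gene TRADD (0.50) and CFLAR (0.64), which encodes FLIP, an inhibitor of caspase-8. The highest edgeR adjusted p among these 4 was 7.36e-06. The 1 fall was that of CASP8 itself (-0.24, adjusted p = 0.000807), which is named here after its value was seen.

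Of 11 genes for the turnover of MCL1 and NOXA proteins, 2 rose and 4 fell, with a median of -0.03. HUWE1, which encodes an MCL1 ubiquitin ligase, fell from 992 ± 46.4 to 849 ± 31.1 CPM (-0.23, edgeR adjusted p = 2.65e-06), and TRIM17, another ligase gene, fell too (-0.42, adjusted p = 0.00638). BTRC (0.31, adjusted p = 0.00132) and RNF7 (0.40, adjusted p = 2.45e-06), whose products belong to ligases for MCL1 and NOXA, rose. The remaining falls were those of USP13 (-0.14, edgeR adjusted p = 0.0118) and CUL5 (-0.13, adjusted p = 0.0489), named here after their values were seen. For CUL5 the CPM values of the groups overlapped. The count of falls was 2 without shControl replicate 1. Of 14 genes for membrane and anchoring partners, 3 rose and 9 fell, with a median of -0.22. DYNLL2, which encodes the dynein light chain that tethers BMF, rose from 67.4 ± 1.65 to 146 ± 4.53 CPM (1.12, adjusted p = 1.16e-16), the reverse of BMF. DYNLL1, which is on the same list, fell from 241.9 ± 4.457 to 202.3 ± 1.995 CPM (-0.26, edgeR adjusted p = 5.28e-07). It is named after its value was seen. YWHAZ (-0.74, adjusted p = 8.7e-17), YWHAE (-0.26) and YWHAQ (-0.25), whose products can hold phosphorylated BAD in the cytosol, fell. The related genes YWHAH (-0.19) and YWHAB (-0.16) also fell. SFN (0.24, edgeR adjusted p = 1.06e-06) and YWHAG (0.07, adjusted p = 0.0207), of the same protein family, rose. These related genes are named after their values were seen.

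Of 11 transcription factors known to act on BH3-only genes, 5 rose and 4 fell, with a median of 0.03. TP63 fell from 1.82 ± 0.265 to 0.599 ± 0.159 CPM (-1.63, edgeR adjusted p = 0.000121). It rests on low counts, 37, 163 and 44 in shControl and 17, 13 and 11 in shIFITM3. FOXO4 rose from 6.53 ± 1.45 to 13.3 ± 0.273 CPM (0.98, adjusted p = 4.82e-07) and E2F1 rose by 0.24 (adjusted p = 6.53e-05). FOXO3, which is known to induce BCL2L11 and BBC3, was at 117 ± 3.33 and 117 ± 4.52 CPM (log2 fold change -0.01, adjusted p = 0.909) and is named after its value was seen. FOXO1 fell from 21.5 ± 1.48 to 16.7 ± 0.987 CPM (-0.36, edgeR adjusted p = 0.000732) and is likewise named after its value was seen. Protein level and activity of these factors were not measured.

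**Figure D5:**
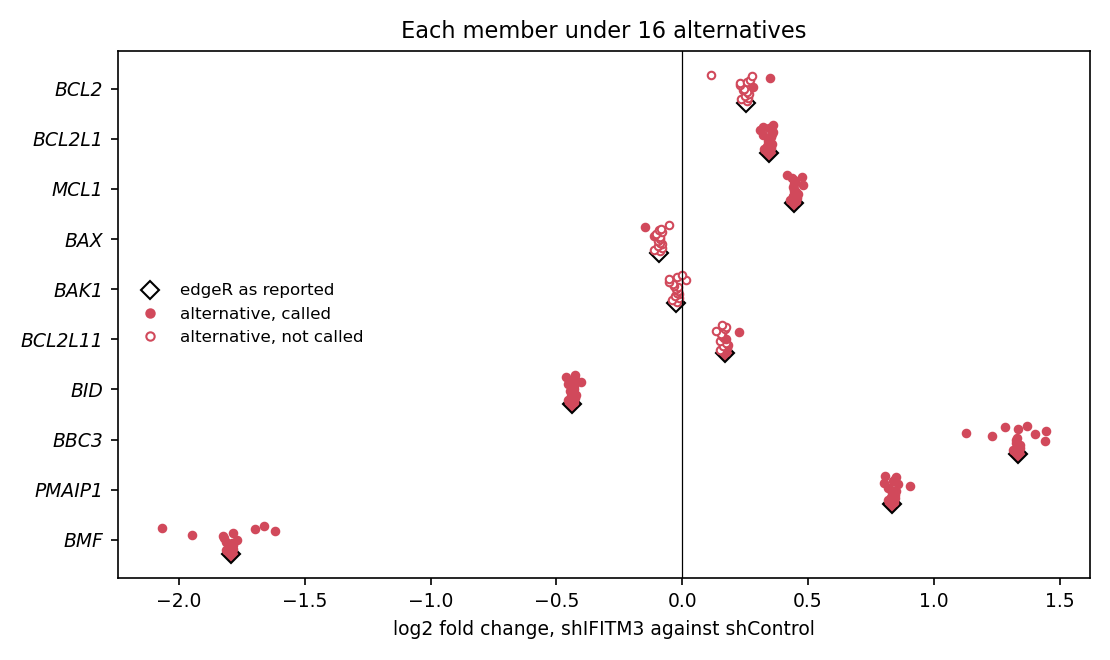
Log2 fold change of each member (shIFITM3 against shControl) under the reported edgeR fit (diamond) and 16 other settings (circles, filled where adjusted p was under 0.05), from other scalings, filters and tools to leaving out each sample; the test against a 1.5-fold change is not drawn. BBC3, PMAIP1, MCL1, BCL2L1, BID and BMF were called under all 16, BAK1 under none, and BCL2, BAX and BCL2L11 under some.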

How the data were processed

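For 6 samples, 3 per group, the authors deposited a table of raw counts by gene symbol, with no normalization. HISAT2 2.2.1, featureCounts from Subread 2.0.6, fastp 0.23.4, SAMtools 1.20, FastQC 0.12.1 and the build hg38 are named per the submitters' processing notes. Which annotation was counted, and with which strand setting, was not given in the sources used here. Overlapping genes on opposite strands may therefore share reads. The library kit keeps strand, per the labels. Replicates are described as biological in the labels.

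Counts were fitted in R 4.3.3 with edgeR 4.0.16 (filterByExpr, TMM, glmQLFit on group alone, two-sided glmQLFTest, Benjamini-Hochberg over 14018 tested genes, threshold 0.05). "Rose" and "fell" mean that a gene passed. The SE was derived from the F statistic (size of the log2 change over the root of F), and 95% intervals use it with 23 degrees of freedom. Limits for a count of 0 are 3 counts and cover counting error only. Other settings, including limma 3.58.1 and DESeq2 1.42.0, are given in the closing section. Exon lengths are the union of GENCODE 29 exons and coordinates are from RefSeq GRCh38.p14, the same assembly as hg38.

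Named genes are the members, IFITM3, all other family genes, up to 4 genes per further list by p, and the 3 genes closest in pattern to the 2 members with the largest called changes. Some genes of the lists are counted but not reported by name here. The members and lists were chosen with earlier results of these data known. The fit was tested on simulated data.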

Additional observations from a re-analysis of the deposited data

How the results depend on the processing

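Each member was refitted under 17 alternatives, giving 170 values, of which 153 stayed on their side of the threshold, 13 lost the call and 4 gained it. No called value changed sign. That of BAK1, which was not called, did so without shControl replicate 3 (from -0.02 to 0.0167). Of the losses, 10 were of BCL2L11, and the gains were of BCL2 and BAX. In the test against a 1.5-fold change MCL1, BCL2L1, BID and BCL2L11 no longer passed, and 2 members were called higher (BBC3 and PMAIP1) and 1 lower (BMF). That test called 807 genes higher and 308 lower overall. Leaving out each sample in turn moved the log2 fold change of BMF between -2.07 and -1.62 and that of BBC3 between 1.13 and 1.44. With the replicate block, 3865 genes were higher and 4005 lower, and 5 and 2 members. It changed no member's call. Same-numbered samples deviated together at r of only 0.016, 0.033 and 0.006 across genes, so the numbers were not taken to pair them. The median log2 fold change of all genes moved by less than 0.1 under every scaling. BMF and BBC3 rest on low counts.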

Other observations

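Genes with a pattern like the 2 members that changed most were sought by the root mean square distance between log2 CPM values, each centred on its shControl mean, over the 6 samples. For BBC3 the closest genes, among those averaging 2 or more on the log2 CPM scale, were ITGA1 (distance 0.100, log2 fold change 1.24), FAM172BP (0.137, 1.40) and VIM (0.140, 1.39), beside 1.33 for BBC3 itself. For BMF they were GABBR2 (0.238, -1.86), IGFBP5 (0.265, -1.61) and NCCRP1 (0.272, -1.91), beside -1.80. With 2 groups of 3 samples, this distance mostly ranks genes by how near their fold change is. Among the transcription factors, the stress-induced genes ATF3 (from 6.32 ± 0.377 to 9.77 ± 1.28 CPM, log2 fold change 0.62) and DDIT3 (from 6.23 ± 0.219 to 9.47 ± 1.29 CPM, 0.61) rose, with edgeR adjusted p of 0.000176 and 0.000213, while ATF4 fell by 0.10 on the log2 scale (adjusted p = 0.0129). These 3 were chosen after their values were seen.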
